A study of Homo sapiens with 18 samples.

Results

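The regions described here are 258 stretches of RNA where QKI had a reproducible eCLIP peak at day 4 of cardiomyocyte differentiation and none at day 8. They were chosen from the authors' 3 merged peak lists (on hg19), which hold 7778 peaks for day 0, 947 for day 4 and 1576 for day 8. Peaks of the 3 lists that overlapped or touched on the same strand were joined into 7018 footprints. Of these, 707 held a day 4 peak, and the 258 are those without a day 8 peak, with or without a day 0 peak. The other 449 day 4 footprints also held a day 8 peak and serve below as the comparison. A day 4 footprint that reappears in the day 8 list was thus left out by the rule, and the values at day 4 and day 8 that chose the footprints are given as a description, without a test.

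QKI binds RNA through short elements that contain ACUAA, many of them in introns, where its binding can promote or repress the use of a nearby exon. It also affects the stability and transport of mature transcripts, and it is known as a splicing regulator in muscle and heart cells. In eCLIP, ultraviolet light links a protein to the RNA it touches, an antibody pulls the protein down (immunoprecipitation, IP), and the RNA that comes with it is sequenced. An input of the same size range, without the immunoprecipitation, gives the background. A peak is a stretch where IP reads exceed input, so a missing peak can follow from less of the RNA as well as from less binding, and these cannot be told apart here.

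Hues6, an established line of human embryonic stem cells, was sampled in 3 groups of 3 IP libraries, each group with 3 inputs. Day 0 cells were undifferentiated. Day 4 cells, labelled cardiac progenitors, had received 1.5 uM CHIR, a Wnt pathway activator, with 1.5 ng/mL BMP4, followed by 100 nM C59, which blocks Wnt secretion. The labels write the concentration of a later C59 addition, before day 8, as 100 mM. Day 8 cells, labelled cardiomyocytes, had gone through the same steps and were collected once beating was seen. All were crosslinked at 400 mJ/cm2. Nothing in the labels ties the libraries of one day to different cultures, so differences between them may be technical. The p-value below takes the library as its unit. When the differences of all libraries share a sign, it does not depend on how far they spread. The files hold peaks and no RNA levels, so the labelled cell states were not checked against marker genes. The library lists held 102085 to 187962 clusters at day 0, 63319 to 99552 at day 4 and 52462 to 62897 at day 8. A cluster is called passing below when its enrichment over input was at least 4-fold and the authors' p did not exceed 0.001. The libraries held 12695 to 15508 passing clusters at day 0, 3030 to 7775 at day 4 and 3726 to 10966 at day 8. Read depth is unknown.

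Most of the 258 footprints still had QKI clusters in single day 8 libraries. A cluster of some fold lay in at least 1 day 8 library at 251 footprints, or 97.3% (Wilson 95% interval 94.5% to 98.7%), where 75% of all 7018 footprints had one. A passing peak lay in at least 1 day 8 library at 235, or 91.1% (87.0% to 94.0%), and at 55.5% of all footprints. The number passing in 3 of 3 day 8 libraries was 76 (29.5%), and it was 95 in 2 libraries (36.8%), 64 in 1 (24.8%) and 23 in none (8.91%). Over all footprints these shares were 22.3% in 3 libraries, 12.8% in 2, 20.4% in 1 and 44.5% in none. The rule used the day 8 list, so nothing is read from the differences between these shares. Only 7 footprints had no cluster in any of the 3 day 8 libraries. A footprint outside the day 8 merged list could thus still hold a day 8 peak in a library, and the footprints are called list-lost from here on. Intervals cover counting error only, and footprints of 1 RNA are not independent.

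**Figure D1:**
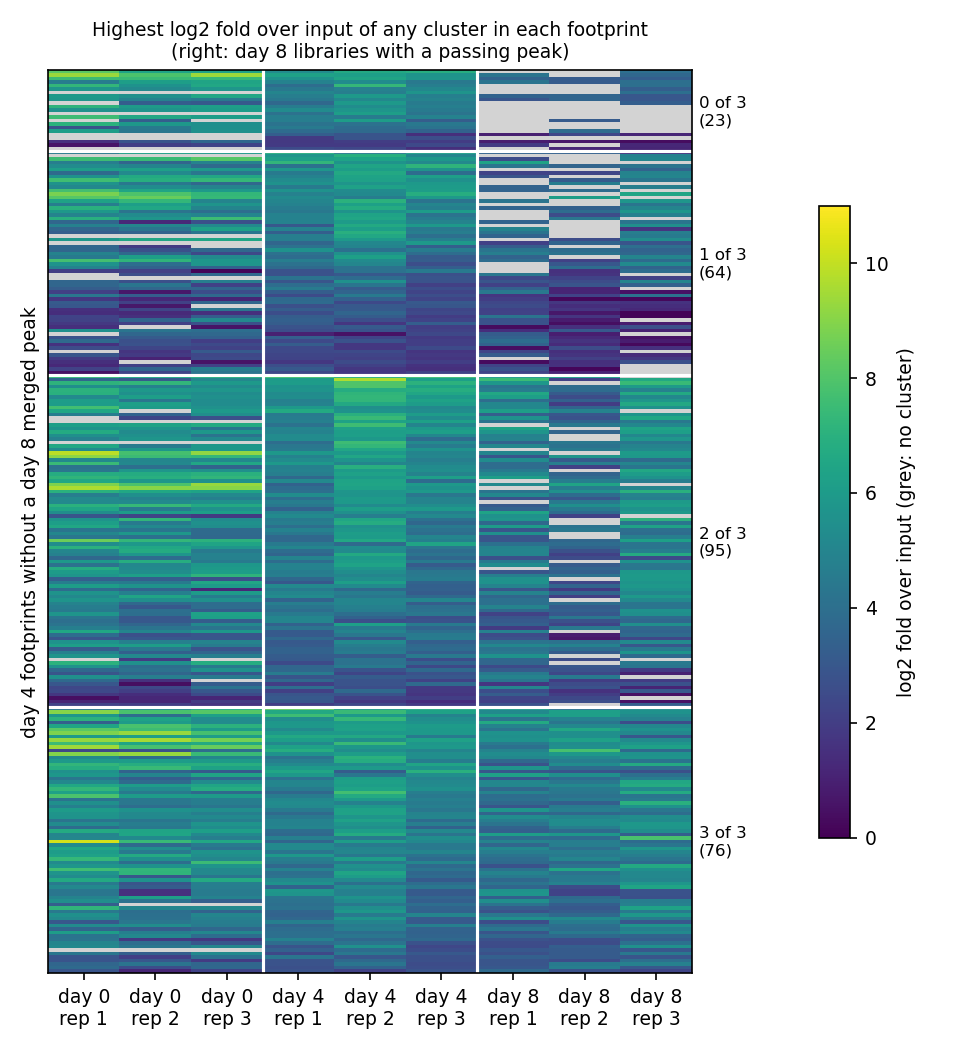
Highest log2 fold over input of any cluster in each of the 258 list-lost footprints (rows) in the 9 IP libraries (columns), grey where no cluster was listed. Rows are grouped by the number of day 8 libraries with a passing peak, from 0 of 3 (23 footprints, top) to 3 of 3 (76 footprints, bottom). Each day 8 column has more grey cells than any day 0 column, and the day 4 columns have none.

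Leaving out 1 day 8 library can only raise these counts, and the rise differed between libraries. Without replicates 1, 2 and 3 in turn, the footprints without any day 8 cluster numbered 8, 12 and 17, against 7 with all libraries. Those without a passing day 8 peak numbered 48, 30 and 55, against 23. Those passing in every remaining day 8 library numbered 94, 137 and 92, against 76. Of the 95 footprints that passed in 2 day 8 libraries, 61 passed in replicates 1 and 3, 16 in replicates 1 and 2, and 18 in replicates 2 and 3. Replicate 2 was thus most often the library without a passing peak. It also held the fewest passing clusters of the day (3726, against 6320 in replicate 1 and 10966 in replicate 3), and the part of list length in this was not tested.

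Library by library, the list-lost footprints passed less often than the others on all 3 days, with the smallest gap at day 4. Both groups needed a day 4 merged peak, and only the others needed a day 8 one. Nothing is therefore read from the day 4 and day 8 gaps. At day 0, 82.9%, 79.5% and 84.5% of them passed in replicates 1, 2 and 3, against 91.8%, 89.1% and 91.1% of the 449 other day 4 footprints. At day 4 the shares were 98.1%, 96.9% and 94.2% for the list-lost footprints and 99.1%, 98.4% and 96.7% for the others. At day 8 they were 69.0%, 45.3% and 72.5% for the list-lost footprints and 99.6%, 97.1% and 98.2% for the others. The means were 82.3% ± 2.58, 96.4% ± 1.99 and 62.3% ± 14.8 at days 0, 4 and 8 for the list-lost footprints (SD, n = 3 libraries a day). For the others they were 90.6% ± 1.39, 98.1% ± 1.27 and 98.3% ± 1.23.

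**Figure D2:**
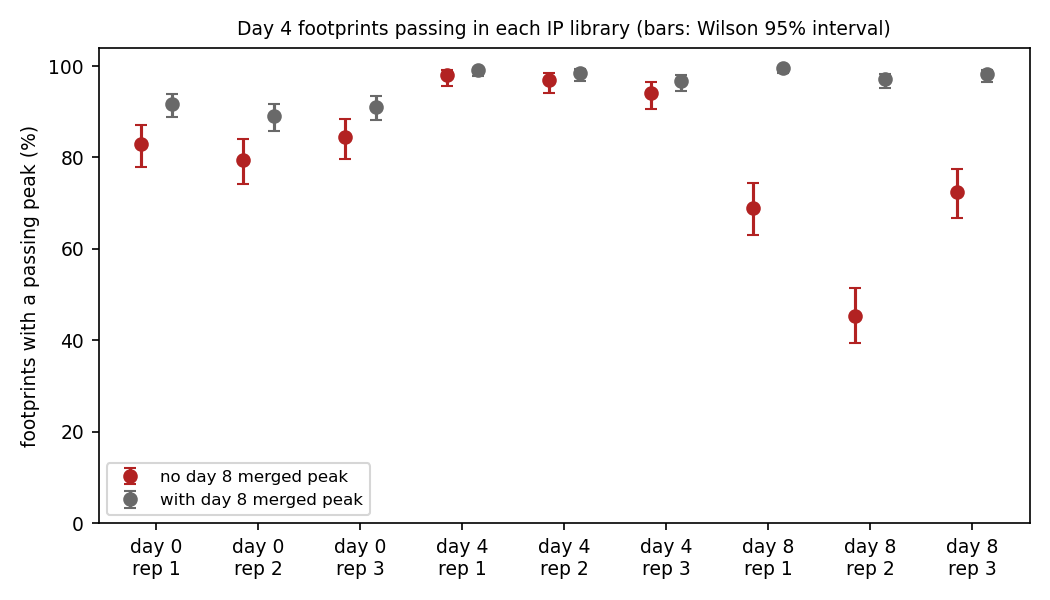
Share of day 4 footprints with a passing peak in each IP library, in percent, for the 258 without a day 8 merged peak (red) and the 449 with one (grey), with Wilson 95% intervals. The groups lie close at day 4, and at day 8 the red points sit between 45.3% and 72.5% while the grey points are at 97.1% or above.

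The day 0 libraries offer the only test. The rule did not ask for a day 0 peak, but day 0 merged peaks took part in the joining and could bridge a day 4 and a day 8 peak into 1 footprint. The list-lost footprints passed less often than the others in 3 of 3 day 0 libraries, with differences of -8.81, -9.63 and -6.60 percentage points in replicates 1, 2 and 3. The mean difference was -8.35 ± 1.57 percentage points (SD, n = 3). A two-sided exact sign-flip permutation test over the libraries gave p = 0.25, the smallest value that 3 libraries allow, so the design could not reach significance. With only the day 4 peak of each footprint scored, an alternative chosen after seeing the data, the difference was again -8.35 percentage points. With footprints joined from the day 4 and day 8 lists alone, also chosen after seeing the data, 272 were list-lost and 461 were not, and 11 of the 272 lay in footprints counted above among the 449. The shares passing at day 0 were then 83.1%, 79.8% and 85.3% for the list-lost footprints in replicates 1, 2 and 3, against 91.8%, 89.2% and 91.3% for the others. That difference was -8.02 ± 1.76 percentage points (SD, n = 3), with the same exact p of 0.25. A day 0 merged peak lay in 196 list-lost footprints, or 76.0% (Wilson 95% interval 70.4% to 80.8%), and in 401 of the 449 others, or 89.3% (86.1% to 91.8%). These shares were not tested against each other.

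**Figure D3:**
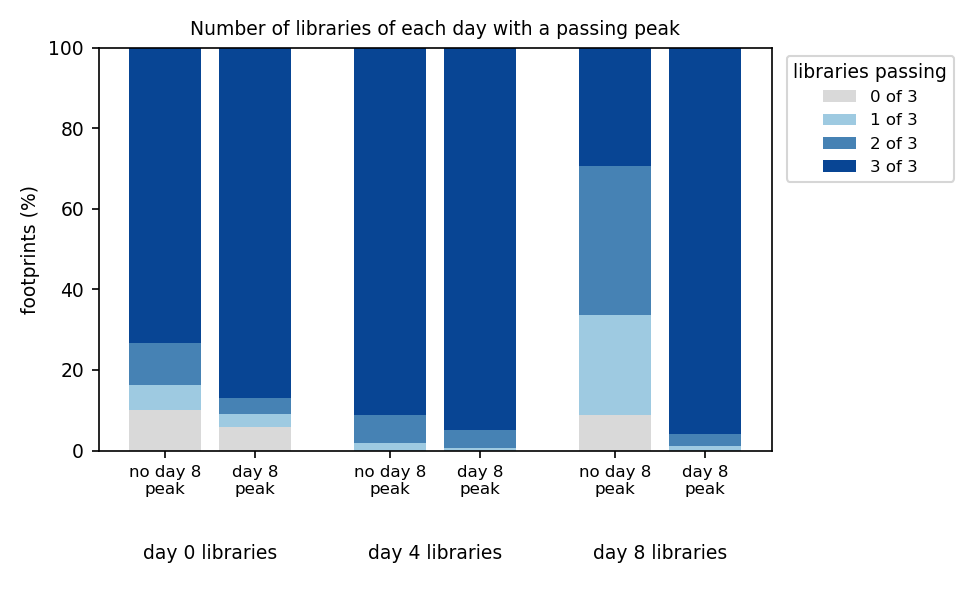
Percent of footprints that passed in 0, 1, 2 or 3 of the 3 libraries of each day, for the 258 list-lost footprints (left bar of each pair) and the 449 other day 4 footprints (right bar). At day 8, 29.5% of the list-lost footprints and 96.0% of the others passed in 3 of 3 libraries.

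Where list-lost footprints still had a day 8 cluster, its enrichment was lower than at the footprints that kept their day 8 peak. The rule used the day 8 list to split the 2 groups, so nothing is read from this day 8 difference. The median of the highest log2 fold was 3.91, 3.55 and 4.69 in day 8 replicates 1, 2 and 3 for the list-lost footprints, against 5.23, 4.88 and 5.86 for the others. The corresponding median −log10 p values were 5.46, 4.47 and 8.72, against 23.6, 19.0 and 34.6. The 76 list-lost footprints that passed in all 3 day 8 libraries had median −log10 p values of 5.27, 6.01 and 9.48. The median log2 fold differed less at day 4, with 4.42, 5.40 and 4.43 for the list-lost footprints and 4.70, 5.91 and 4.70 for the others. The median −log10 p values at day 4 were 6.89, 16.7 and 11.4, against 9.54, 30.3 and 18.5. Day 0 medians of the log2 fold were 5.27, 4.75 and 5.07, against 6.28, 5.67 and 5.58. Those of the −log10 p were 18.2, 16.2 and 18.6, against 46.6, 35.7 and 37.4. Both medians were thus lower for the list-lost footprints in every library of each day. Many of these fold values were identical between footprints. In day 8 replicates 1, 2 and 3, the 221, 211 and 229 list-lost footprints with a cluster had 103, 94 and 116 distinct log2 folds, counted to 5 decimals, and the commonest value was shared by 16, 17 and 14 of them. In the day 4 replicates, all 258 footprints had a cluster, with 110, 161 and 149 distinct values. The commonest day 4 value was shared by 19, 9 and 7 of them. In the day 0 replicates there were 167, 183 and 167 distinct values among 239, 242 and 240 footprints, and 8, 6 and 5 shared the commonest.

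Passing everywhere at day 8 did not by itself place a footprint in the day 8 list. Over all 7018 footprints, 1154 of the 1565 that passed in 3 of 3 day 8 libraries were in it, or 73.7%, against 30 of 898 that passed in 2 (3.34%) and 12 of 1433 that passed in 1 (0.837%).

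The libraries hold different numbers of passing clusters, so the shares were also taken over the 3030 passing clusters with the highest fold in each library, an alternative chosen after seeing the data. With these equal numbers, 41.9%, 45.7% and 51.9% of the list-lost footprints passed in the day 0 replicates, 98.1%, 67.8% and 76.7% in the day 4 replicates, and 39.1%, 35.7% and 39.1% in the day 8 replicates. Under the same setting the other day 4 footprints passed at 61.9%, 60.8% and 62.6% in the day 0 replicates. They passed at 99.1%, 80.6% and 86.4% in the day 4 replicates and at 82.6%, 89.8% and 75.7% in the day 8 replicates. This setting removes more clusters from the longer lists, so shares within a day move by unequal amounts. Those of the list-lost footprints moved closer together at day 8 and further apart at day 4. Of the list-lost footprints, 87 then passed in no day 8 library and 25 in all 3.

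Footprints that passed in every day 4 library and in no day 8 library were few. They numbered 18 of the 258, or 6.98%, where the rule itself used this contrast. Over all 7018 footprints 0.584% had this pattern. A passing peak in 3 of 3 day 0 libraries and none at day 8 was found at 14 list-lost footprints (5.43%), while 41.3% of all footprints had that pattern. Of all footprints, 6496 held a day 0 merged peak and 707 the day 4 merged peak that the rule required. Nothing is therefore read from this difference. A passing peak in 9 of 9 libraries was found at 65 list-lost footprints, or 25.2%, against 374 of the 449 other day 4 footprints, or 83.3%, and 7.82% of all footprints. The 449 were required to hold a day 8 merged peak and the list-lost footprints to lack one, so this contrast is not interpreted. For comparison in the other direction, 747 footprints had a day 8 merged peak and no day 4 merged peak. Of those, 269 passed in no day 4 library (36.0%) and 82 in 3 of 3, whereas 8.91% of the list-lost footprints passed in no day 8 library and 29.5% in 3 of 3. The 2 directions were scored in libraries of unlike length, with 3030 to 7775 passing clusters at day 4 and 3726 to 10966 at day 8. Neither this difference nor the part of list length in it was tested.

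The 7 footprints with no day 8 cluster of any fold included 3 in the locus with the most merged peaks of the series, 283 against 192 in the next. The description supplied with the series names the densest QKI locus as MIAT, a nuclear long noncoding RNA known to bind QKI, and RefSeq lists MIAT on the plus strand of chromosome 22, as is this locus. No hg19 annotation was used, so other sites are given by position, without a gene, exon or intron. At chr22:27066931-27067002 (plus strand, 72 nt) the highest log2 fold was 7.11, 6.03 and 6.23 in the day 0 replicates and 4.62, 5.33 and 4.75 in the day 4 replicates, with no cluster in the day 8 replicates. At chr22:27067145-27067201 it was 7.56, 6.58 and 6.12 at day 0 and 4.70, 4.59 and 4.87 at day 4. At chr22:27069746-27069807 it was 7.01, 5.87 and 5.48 at day 0 and 4.19, 4.15 and 4.42 at day 4. All 6 libraries of days 0 and 4 passed at each of these sites. The nearest day 8 merged peaks were 270, 71 and 45 nt away, so MIAT itself still carried QKI peaks at day 8.

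Another 4 footprints had no day 8 cluster. The site at chr19:3650292-3650361 (minus strand) had log2 folds of 5.54, 5.70 and 6.10 at day 0 and 5.29, 5.72 and 4.50 at day 4. At chr16:10424816-10424920 (plus strand) the day 4 libraries had 4.16, 6.18 and 4.25, all passing, and no day 0 or day 8 library had a cluster. At chr21:9826223-9826246 (plus strand) the log2 fold was 2.78, 4.51 and 5.49 at day 0 and 4.51, 3.89 and 4.18 at day 4. The site at chr9:128516361-128516401 (plus strand) had 1.88, 2.88 and 2.66 at day 4, where replicate 1 did not pass, and no cluster at day 0. The sites on chromosomes 21 and 9 fell outside the naming rule and were added after their values were seen, to complete the count. The sites on chromosomes 16 and 9 were the only 2 of the 258 with clusters at day 4 alone. A day 8 merged peak lay 123 nt from the chromosome 9 site.

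The 5 footprints with the highest day 4 fold in the merged list all had a passing peak at day 8. They are given in order of that fold and were taken from the 235 list-lost footprints that passed in 3 of 3 day 4 libraries. The first, at chr1:16993383-16993442 (minus strand, merged log2 fold 7.37), had 7.32, 6.54 and 6.82 at day 0, 7.66, 6.89 and 7.55 at day 4, and 6.00 and 6.14 in day 8 replicates 1 and 2, with no cluster in replicate 3. The next lay at chr1:237766453-237766524 (plus strand, 7.28). There the log2 fold was 4.41, 5.29 and 6.73 at day 0, 8.42, 6.01 and 6.69 at day 4, and 6.08, 4.20 and 5.39 at day 8, with a passing peak in 9 of 9 libraries. The day 8 and day 4 values overlapped there.

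At chr3:180949523-180949632 (plus strand, 7.28) the day 0 libraries had 3.64, 3.16 and 5.12, the day 4 libraries 6.02, 9.64 and 6.19, and the day 8 libraries 7.50, 2.14 and 6.64, of which the second did not pass. Day 0 values were below every day 4 value here, while day 8 values overlapped both. At chr12:30871631-30871714 (minus strand, 7.05), day 0 had 7.12, 7.25 and 5.89, day 4 had 6.09, 7.97 and 7.08, and day 8 had 5.82 and 7.41 with no cluster in replicate 2. At chr16:50613529-50613615 (plus strand, 6.88), day 0 had 9.02, 7.84 and 8.12, day 4 had 6.66, 7.46 and 6.35, and day 8 had 5.23, 6.20 and 5.59, all passing. That site lay 43 nt from a day 8 merged peak. It was the only one of these 5 sites where the 3 days did not overlap, with day 0 highest and day 8 lowest.

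**Figure D4:**
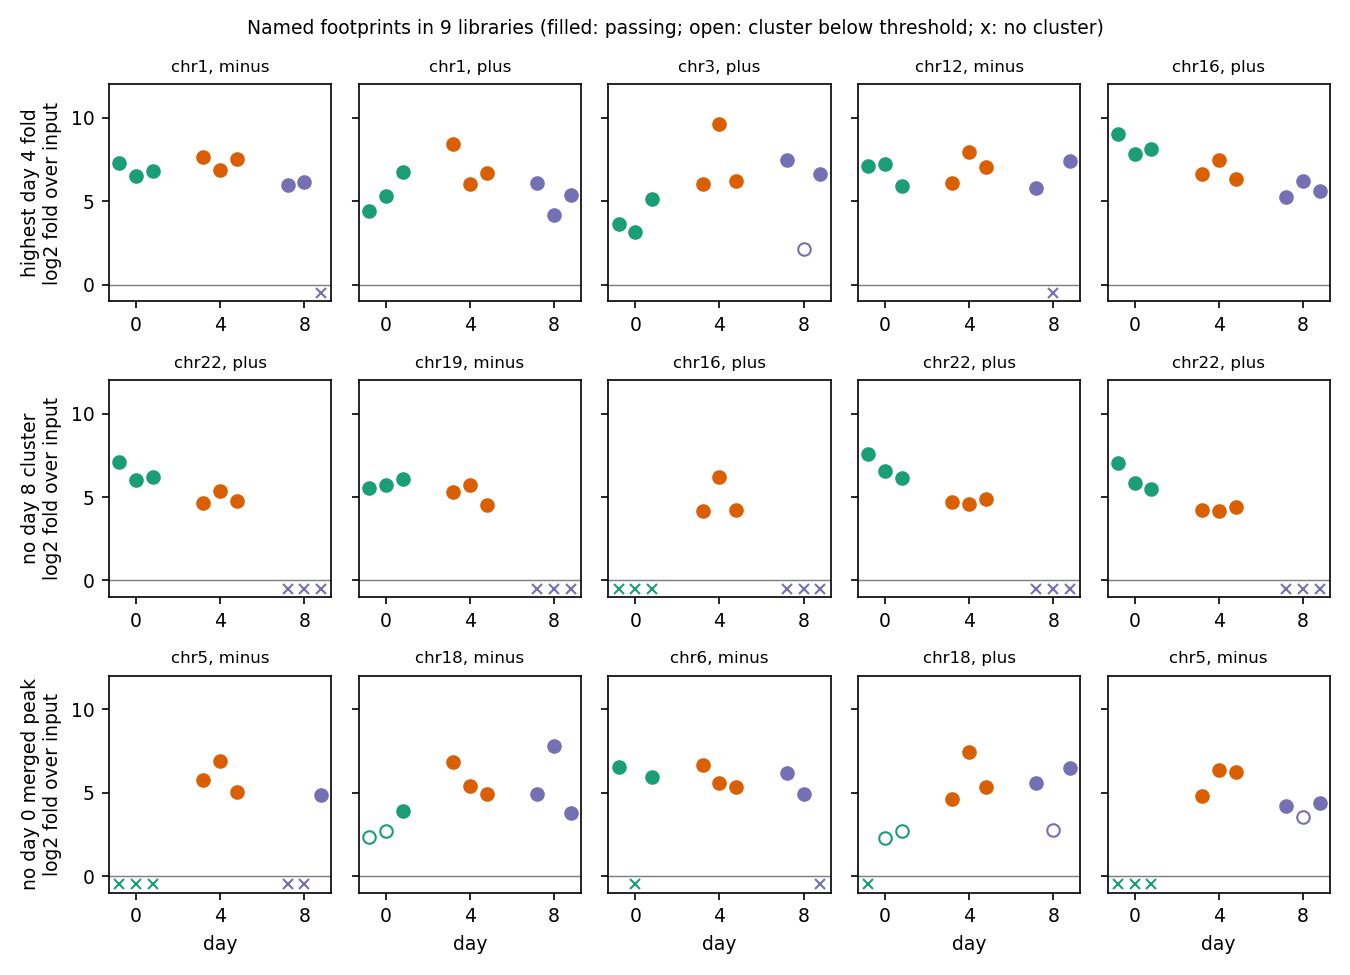
Highest log2 fold over input in the 3 libraries of each day (x axis: day 0, 4, 8) at 15 named footprints: the 5 with the highest day 4 fold (top row), the 5 strongest without a day 8 cluster (middle row) and the 5 strongest without a day 0 merged peak (bottom row). Filled points passed, open points are clusters below the threshold, and crosses mark libraries with no cluster; titles give chromosome and strand, and the chr5 site at the left of the bottom row passed in 1 of 3 day 8 libraries.

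Of the list-lost footprints, 62 had no day 0 merged peak. Their day 4 signal was weaker than that of the 196 with one, with a median merged log2 fold at day 4 of 3.80 against 4.98. Their median width was 49 nt against 90 nt. The joined width of the 196 includes their day 0 peaks, so nothing is read from this width difference. At day 0, 26 of the 62 passed in no library, 16 in 1, 20 in 2 and 0 in 3, and 12 had no day 0 cluster of any fold. At day 8, 54 of the 62 passed in at least 1 library and 9 in 3 of 3, against 181 and 67 of the 196. Over all 258, a passing peak in 3 of 3 day 4 libraries and in none at day 0 was found at 21 footprints, or 8.14%, against 22 of the 449 other day 4 footprints, or 4.90%, and 0.727% of all 7018 footprints. The day 4 peaks of all these footprints were required by the rule, so nothing is read from the difference to all footprints.

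Among those 62, the strongest day 4 site lay at chr5:139396675-139396727 (minus strand, merged log2 fold 6.19). Its log2 fold was 5.79, 6.93 and 5.02 in the day 4 replicates and 4.86 in day 8 replicate 3, with no cluster in the other day 8 libraries or at day 0. A day 8 merged peak lay 66 nt away. The 30-nt site at chr18:51750632-51750661 (minus strand, 5.91) had 2.32, 2.70 and 3.93 at day 0, where only replicate 3 passed, 6.86, 5.39 and 4.94 at day 4, and 4.91, 7.80 and 3.77 at day 8, all passing. All day 4 values were above the day 0 values, and day 8 values overlapped day 4.

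At chr6:28763751-28763756 (minus strand, 6 nt, 5.87) day 0 had 6.56 and 5.93 with no cluster in replicate 2, day 4 had 6.66, 5.60 and 5.35, and day 8 had 6.17 and 4.93 with none in replicate 3. At chr18:31270540-31270616 (plus strand, 5.82), day 0 had 2.29 and 2.71 in replicates 2 and 3, neither passing, day 4 had 4.61, 7.45 and 5.35, and day 8 had 5.61, 2.78 and 6.49, of which the second did not pass. At chr5:96456316-96456425 (minus strand, 5.79) there was no day 0 cluster, day 4 had 4.79, 6.35 and 6.25, and day 8 had 4.23, 3.55 and 4.39, of which the second did not pass. At the chromosome 5 site all day 8 values were below the day 4 values, while at the chromosome 18 site they overlapped.

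The 5 list-lost footprints with the highest passing value in any day 8 library each passed in 2 or 3 of the 3 day 8 libraries. At chr7:104645800-104645913 (minus strand) the log2 fold was 5.06, 5.21 and 4.71 at day 0, 4.79, 4.53 and 5.39 at day 4, and 3.91, 3.88 and 7.86 at day 8, where replicate 3 alone lay above the other days. The chromosome 18 site at chr18:51750632-51750661 followed with its 7.80 in day 8 replicate 2, the chromosome 3 site with 7.50 in replicate 1 and the site at chr12:30871631-30871714 with 7.41 in replicate 3. At chr12:120598648-120598731 (minus strand), day 0 had 5.69, 7.26 and 5.26, day 4 had 4.51, 6.53 and 4.10, and day 8 had 5.72 and 7.08 with no cluster in replicate 2. In each of these 5 cases the 3 day 8 libraries disagreed by more than 3 on the log2 scale or 1 of them had no cluster.

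List-lost footprints were spread over many loci, with a few dense ones. Because no gene annotation was used, neighbouring merged peaks of 1 strand, up to 20 kb apart, were grouped into 3755 loci. Of these, 217 held list-lost footprints. Of these loci, 190 held 1 and 27 held 2 or more, which together contained 68 footprints. At 182 of the 217 loci the whole locus had no day 8 merged peak, as at 81.1% of all 3755 loci. Those 182 loci held 205 list-lost footprints, of which 187 still passed in at least 1 day 8 library. The remaining 53 footprints, or 20.5% (Wilson 95% interval 16.1% to 25.9%), lay in loci that kept a day 8 merged peak elsewhere. A day 8 merged peak lay within 50 nt of 8 footprints, within 200 nt of 22 and within 1000 nt of 37.

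The locus with the most list-lost footprints was MIAT (chr22:27065918-27070593, plus strand), with 7 of them and 4 footprints that kept a day 8 peak. Counted over footprints and libraries, the 7 passed in 21 of 21 cases at day 0, 21 of 21 at day 4 and 6 of 21 at day 8. The locus held 230, 240 and 236 passing clusters in the day 0 replicates, 30, 38 and 47 at day 4, and 16, 19 and 16 at day 8. Day 8 counts were thus lowest in every replicate. The MIAT site at chr22:27068338-27068513, with log2 folds of 8.77, 7.94 and 7.28 at day 0 and 4.85, 5.24 and 6.87 at day 4, kept 6.44 in day 8 replicate 3 alone.

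A locus on chromosome 6 (chr6:2200642-2202363, minus strand) stood at the other end. It held 4 list-lost footprints, which passed in 12 of 12 cases at day 0, 12 of 12 at day 4 and 11 of 12 at day 8. The locus also held 2 footprints that kept a day 8 peak. Day 8 merged peaks lay 17 to 371 nt from the 4 list-lost footprints. At chr6:2201391-2201465 the log2 fold was 8.98, 9.29 and 7.44 at day 0, 5.61, 6.11 and 5.44 at day 4, and 5.37, 5.88 and 5.59 at day 8. The later days overlapped at that site, and day 0 lay above both. At chr6:2202273-2202363 the values were 9.26, 9.52 and 8.72 at day 0, 6.16, 5.42 and 6.30 at day 4, and 5.61, 6.31 and 5.27 at day 8.

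A chromosome 13 locus (chr13:94070656-94071263, plus strand, 608 nt) held 3 list-lost footprints, which passed in 9 of 9 cases at day 0 and at day 4 and in 8 of 9 at day 8. At chr13:94070656-94070759 the log2 fold was 7.08, 6.35 and 5.32 at day 0, 5.40, 7.34 and 5.39 at day 4, and 4.23, 4.88 and 4.86 at day 8. All 3 day 8 values passed, and all were below the day 4 values.

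A chromosome 15 locus (chr15:73348271-73348661, plus strand) held 3 such footprints, passing in 9 of 9 cases at day 0, 9 of 9 at day 4 and 5 of 9 at day 8. The middle one, at chr15:73348393-73348468, had 6.13, 4.35 and 5.51 at day 0 and 3.87, 3.82 and 3.44 at day 4. At day 8 it had a cluster only in replicate 2, at 3.88, which did not pass. Its neighbours in the locus passed in 2 and 3 day 8 libraries.

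At chr9:128551227-128603362 (plus strand) 3 footprints passed in 8 of 9 cases at day 0, 9 of 9 at day 4 and 6 of 9 at day 8. The site at chr9:128603300-128603362 passed in 9 of 9 libraries, with 4.20, 4.35 and 4.64 at day 0, 5.07, 6.00 and 4.81 at day 4, and 4.08, 4.55 and 4.54 at day 8. Its day 4 values were above those of both other days. At the remaining sites of the locus, chr9:128551227-128551312 and chr9:128569809-128569857, the day 4 values overlapped those of both other days. At chr5:155916-168542 (plus strand) 3 footprints passed in 9 of 9 cases at days 0 and 4 and in 6 of 9 at day 8, beside 6 footprints that kept their day 8 peak.

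Another 2 loci held at least 3 list-lost footprints. At chr2:133012223-133013174 (minus strand) 4 footprints passed in 10 of 12 cases at day 0, 12 of 12 at day 4 and 6 of 12 at day 8. That locus also held 2 footprints that kept a day 8 peak, and day 8 merged peaks lay 11 to 503 nt from the 4. At chr19:45981862-45992546 (minus strand) 3 footprints passed in 5 of 9 cases at day 0, 9 of 9 at day 4 and 8 of 9 at day 8. It was the only one of the 8 loci with a higher count at day 8 than at day 0. Some adjacent footprints there were crossed by the same clusters in some libraries and are not separate observations.

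**Figure D5:**
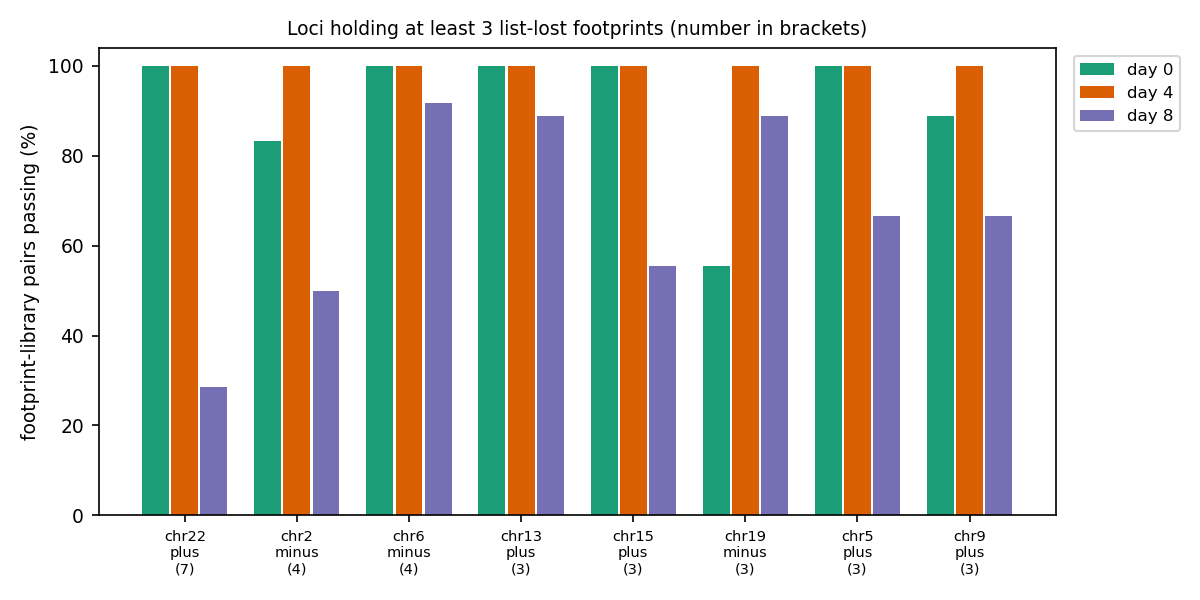
Percent of footprint and library pairs with a passing peak at days 0, 4 and 8 for the 8 loci that hold at least 3 list-lost footprints (number in brackets; 3 libraries a day, no error bars because footprints of 1 locus share libraries). The chromosome 22 locus has the lowest day 8 bar (6 of 21) and the chromosome 6 locus the highest (11 of 12).

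The widths of the list-lost footprints ran from 3 to 327 nt with a median of 84.5 nt, against 105 nt for the other day 4 footprints. The footprints of the 2 groups are joined from different lists, and their day 4 merged peaks alone had median widths of 65.5 nt (284 peaks) and 66 nt (663 peaks). The plus strand held 140 list-lost footprints, or 54.3%, against 267 of the 449 others, or 59.5%. By chromosome, the highest counts were 23 on chromosome 1, 22 on chromosome 2 and 22 on chromosome 5. These were 8.91%, 8.53% and 8.53% of the list-lost footprints, where the same chromosomes held 8.41%, 7.92% and 5.46% of all 7018 footprints. The mitochondrial genome held 2 list-lost footprints and 17 other day 4 footprints, of 26 in all.

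The rule has a threshold in the authors' lists, and the sites at its edge had merged folds close to the 4-fold minimum. The list-lost footprint with the lowest merged day 4 log2 fold was mitochondrial (chrM:4712-4753, plus strand, 2.09), with 2.23, 1.98 and 1.65 at day 0, 2.01, 2.38 and 1.87 at day 4, and 2.78 and 3.33 in day 8 replicates 1 and 3. It was followed by chr19:42373100-42373165 (plus strand, 2.09), with 2.92, 1.83 and 1.44 at day 4 and 2.12, 2.66 and 0.53 at day 8. The third was chr11:46405273-46405292 (plus strand, 2.10), with 2.50, 2.36 and 1.47 at day 4 and 1.17 and 1.14 in day 8 replicates 2 and 3. None of these 3 had a day 0 merged peak.

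Just outside the rule were footprints whose day 8 merged peak was the weakest. The lowest was chr13:107210990-107211050 (minus strand, merged log2 fold 2.06 at day 8), with 2.46, 1.58 and 2.01 at day 8. The next were chr19:49993224-49993245 (plus strand, 2.09), with 3.88, 1.33 and 1.03 at day 8, and chr17:7480132-7480194 (plus strand, 2.18), with 3.14, 2.05 and 1.33 at day 8. Only 2, 1 and 2 of 3 day 8 libraries passed at these sites, fewer than at the 76 list-lost footprints that passed in 3 of 3.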

How the data were processed

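QKI eCLIP peak lists of 9 IP libraries and 3 merged lists were used; the 9 inputs entered only through the authors' scores. Tools named in the submitters' processing notes are STAR, SAMtools and cutadapt (no version given), with hg19 as the build. Peaks were input-normalized per the file headers. The merged lists hold peaks that passed a 4-fold and 3-way IDR comparison, per the file headers. The deposited values are a log2 fold of IP over input and a −log10 p-value, capped at 400. How peaks were called and duplicates removed is not stated in the labels or headers.

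Footprints were built, overlapped with each library's clusters (1 shared nt sufficed, strand kept), counted and plotted with Python 3.11.15, pandas 2.3.3, scipy 1.17.1 and matplotlib 3.10.9. The joining was tested on simulated data. No count model was used, and depth is unknown. The only gene name used, MIAT, comes from the description supplied with the series; RefSeq (GRCh38.p14) gave its chromosome and strand, and no coordinates of that build were used. No hg19 sequence was read, so no motif was searched, and the gene lists that needed an hg19 annotation were not run.

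Regions were named by rule. The first were the 5 highest by day 4 fold that passed in 3 of 3 day 4 libraries. Of these, the 5 highest without a day 8 cluster and the 5 highest without a day 0 merged peak were also named. The 5 highest in any day 8 library and 3 on each side of the threshold followed. Of the loci with the most footprints, 5 were planned, with ties by position. All 8 with at least 3 footprints were given instead. Sites singled out in the paragraphs on those loci were not picked by rule and need not be typical of their locus. The footprints, lists and tests were chosen with earlier results of these data known.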

Additional observations from a re-analysis of the deposited data

How the results depend on the processing

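The list-lost footprints numbered 273 when touching peaks stayed apart, 231 when peaks within 50 nt were joined and 230 with merged peaks of at least 3 on the log2 scale, against 258; without the day 0 list in the joining it was 272. Under the first 3 of these settings, the share with a day 0 merged peak was 74.7%, 77.5% and 80.0%, against 76.0%. With a passing threshold of log2 fold 3, 46 footprints passed in no day 8 library, against 23. With 3030 clusters per library, 87 passed in no day 8 library, 25 in every day 8 library (against 76) and 79 in every day 0 library (against 189). Leaving out 1 library at a time gave 8 to 17 footprints without a day 8 cluster, 30 to 55 without a passing day 8 peak, 92 to 137 passing in every remaining day 8 library, 237 to 247 in every day 4 library and 192 to 201 in every day 0 library. A stricter threshold, a shorter list or a missing library lowers the number of passing matches by construction, and with fewer libraries a footprint passes in every one more easily; other causes were not tested. The day 0 difference stayed below 0 under every alternative run, from -15.3 percentage points with 3030 clusters per library to -7.30 in footprints of at most 200 nt (-8.02 without the day 0 list in the joining), with -9.22 to -7.70 when a day 0 library was left out; the exact p of 0.25, or 0.5 with 2 libraries, cannot pass a threshold. No paired analysis was possible because no result tests one day against another. The motif search was not run, since no hg19 sequence was read.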
